A study of Bos taurus with 6 samples.

Results

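The genes described here are 44 genes of mitosis and the mitotic spindle in bovine blastocysts. They are the cyclins and kinases that start cell division, the checkpoint and kinetochore proteins that attach chromosomes to the spindle, the motors and bundlers of spindle microtubules, and the proteins that condense and separate chromosomes. They were taken by symbol from a list that uses no measured value as a criterion, although it was drawn up with earlier results of these data known. All 44 were found among the 12826 genes of the count table, and all 44 passed the filter on low counts that left 12732 genes for testing. The smallest count of any of them in any library was 39 and the largest was 13886.

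The series holds 6 RNA-seq libraries of Bos taurus embryos, each from a pool of in vitro produced blastocysts at day 7, which the design text describes as of slaughterhouse origin. BHB, or beta-hydroxybutyrate, is a ketone body that rises in the blood of fasting animals; 3 libraries came from embryos exposed to it, and 3 control libraries (CTRL in the labels) from embryos without it. The labels name neither the dose nor the length of exposure, the breed or the size of a pool. Since they do not say that pools were separate batches either, p-values reflect only how far these 6 libraries vary, which may be technical. A pool averages over embryos and over the cell types of each embryo.

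Mitosis is driven by CDK1, a kinase that works with cyclins A and B and is held in check until CDC25 phosphatases remove inhibitory phosphates. Many of the genes that carry out division are transcribed late in the cell cycle, and their proteins are degraded at its end, so their messenger RNA is often read as a marker of dividing cells. In the cleaving embryo part of this RNA is inherited from the oocyte, and by the blastocyst stage the embryo's own genome is active while cells of the trophectoderm and the inner cell mass go on dividing.

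Totals ran from 6440732 to 8176648 counts per library, and the 44 genes together took 0.757% to 0.952% of them. The labels do not pair libraries, but a refit that paired each control with the BHB library of the same number gave back 99.98% of the p-values of the authors' deposited table. Each of the other 5 pairings gave back at most 0.398%. Pairs 1 to 3 below are these pairs, a property of that table. Of the markers of the blastocyst's cell types, 8 of 10 trophectoderm genes, 7 of 9 inner cell mass and epiblast genes and 4 of 6 primitive endoderm genes were tested. Of markers of other cells, 3 of 10 for cumulus and granulosa cells, 3 of 12 for the oocyte and 1 of 6 for sperm were tested, with summed levels of at most 37.5, 32.5 and 4.81 CPM (counts scaled to a common library total) in any library.

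The first comparison asks whether mitotic gene expression differed between blastocysts with and without BHB. In edgeR's quasi-likelihood test, 0 of the 44 genes passed an adjusted p of 0.05 (0% of all 12732 genes did), and 0 had an unadjusted p under 0.05 (2.73% of all genes did). DESeq2's Wald test also called 0 of the 44 (0.0468% of all genes). The log2 fold change of BHB over control was above 0 in 27 of the 44 genes and below 0 in 17, against 50.9% of all genes below 0. The median was 0.07 over the 44 genes and -0.005 over all genes, with a range from -0.19 (BUB1) to 0.45 (CDC25B). With 1 library left out the genes above 0 numbered from 22 (without BHB 2) to 35 (without control 2), with 23 without control 1, so single libraries set the size of this majority. Scaling by library size alone gave 34 genes above 0 and 10 below, and 60.7% of all genes above 0, against 49.1% of all genes with TMM scaling (edgeR's trimmed mean of M values).

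The precision of these values was read from 95% intervals, taken gene by gene and not adjusted for the number of genes. They describe the spread of these 6 libraries only. The 95% interval of the log2 fold change lay within a 2-fold change in either direction for 43 of the 44 genes (66.6% of all tested genes had such an interval). The gene outside it was CDC25B, the least abundant member by counts, with an interval from -0.24 to 1.13. Leaving out 1 library turned the sign of the log2 fold change of CCNB2, CDK1, PLK1, AURKA, AURKB, CDC20, TOP2A, MKI67, KIF11 or CENPA, whereas those of CCNA2, CCNB1, CDC25B, BUB1, PTTG1 and NDC80 held their sign in 18 of 18 other settings. Of these 6, the values of 5 moved by over 1.5 times with 1 library left out, at their smallest to 0.24 for CDC25B without control 2, 0.15 for NDC80 and 0.06 for PTTG1 without BHB 3, 0.03 for CCNB1 without BHB 2 and -0.10 for BUB1 without control 2. Scaling by library size alone turned the sign of CCNB2 and CDK1. In these pools, the number of dividing cells and the amount of RNA per dividing cell cannot be told apart.

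**Figure D1:**
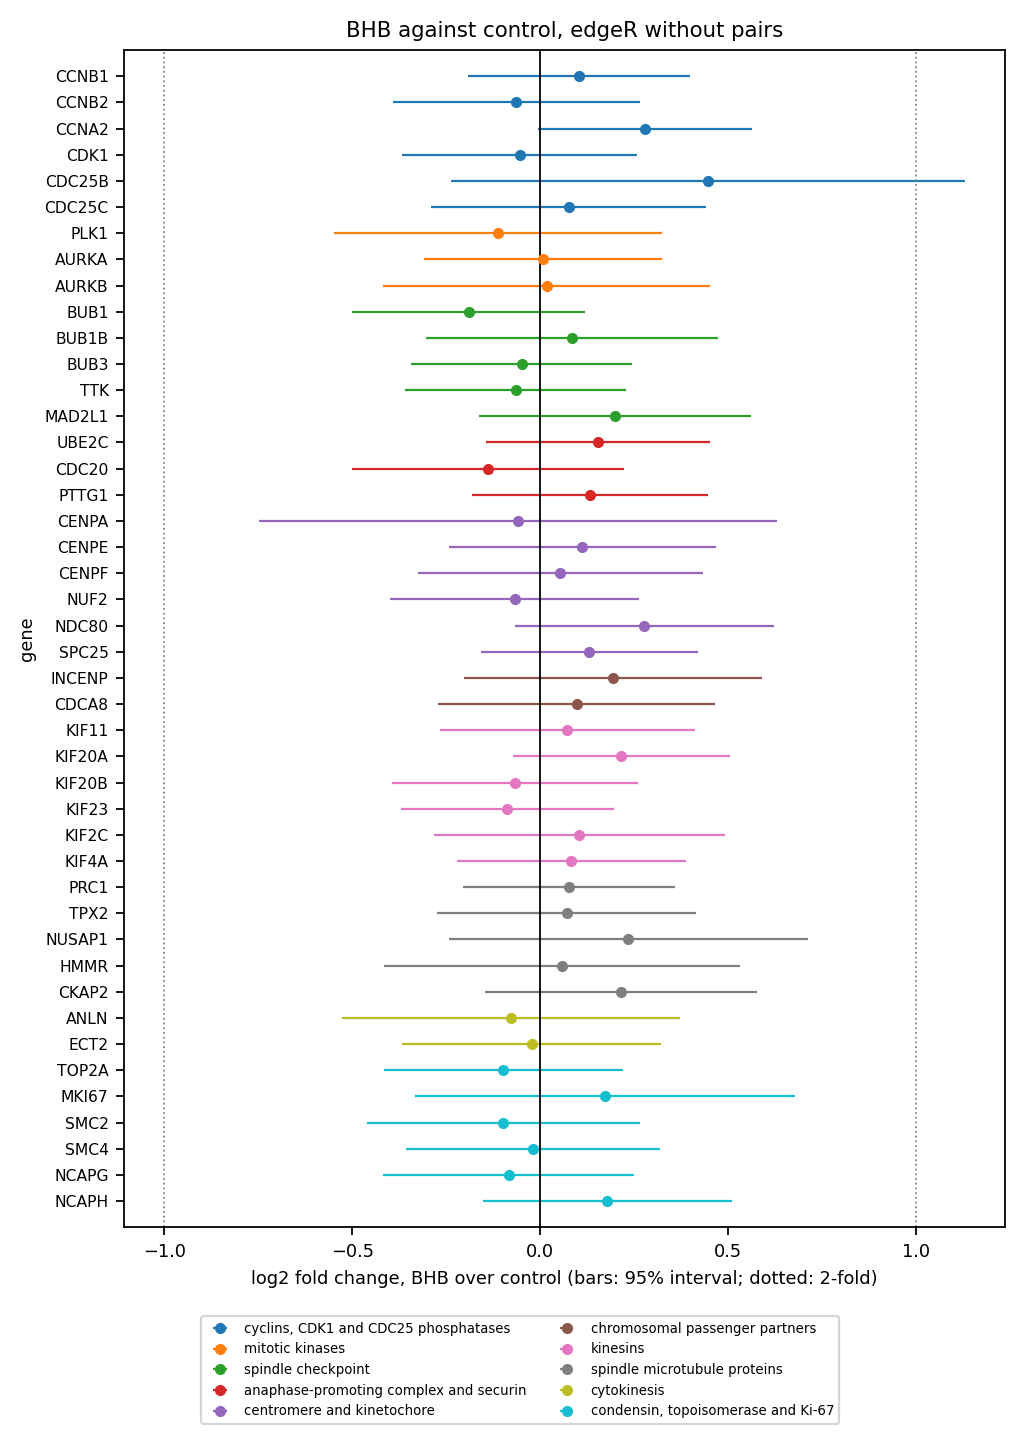
Log2 fold change of BHB over control for each of the 44 genes (x axis; y axis, genes coloured by role), with 95% intervals from edgeR without pairs and dotted lines at a 2-fold change. Every interval spans 0, and only that of CDC25B reaches past a 2-fold change.

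Cyclins and their kinase came first in the order of events. CCNA2 encodes cyclin A2, which acts in S phase and at the entry into mitosis. It was at 270.1, 254 and 306 CPM in control libraries 1 to 3 and at 316, 351 and 339.5 CPM in BHB libraries 1 to 3. The 3 BHB libraries were all above the 3 controls, by a narrow gap between control 3 and BHB 1. The log2 fold change was 0.28 (SE 0.13, 95% interval -0.01 to 0.56), with the smallest p of the 44 genes and an adjusted p of 0.999 in edgeR.

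CCNB1, which encodes cyclin B1, the main mitotic partner of CDK1, was at 449, 491 and 442 CPM in controls and 434, 544 and 506 CPM with BHB, and the groups overlapped. CCNB2, a second B-type cyclin, was at 71.2, 70.0 and 61.8 CPM in controls and 58.5, 71.6 and 64.0 CPM with BHB. CDK1 itself was at 244, 267 and 263 CPM in controls and 209.6, 261 and 275 CPM with BHB, so that the BHB libraries held both its lowest and its highest value. The log2 fold changes were 0.10 (SE 0.13), -0.06 (SE 0.15) and -0.05 (SE 0.14), and none of these genes passed edgeR's test.

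The ratio of CCNA2 to CDK1 counts within a library does not depend on scaling between libraries. It was 1.11, 0.952 and 1.16 in controls and 1.51, 1.35 and 1.24 with BHB, so the groups did not overlap. The ratio of CCNB1 to CDK1 counts was 1.84, 1.84 and 1.68 in controls and 2.07, 2.09 and 1.84 with BHB, with control 2 and BHB 3 nearly equal. The ratio of CCNA2 to CCNB1 counts overlapped, at 0.601, 0.517 and 0.693 in controls and 0.729, 0.645 and 0.671 with BHB. These ratios were chosen after the values were seen and were not tested.

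CDC25B and CDC25C encode phosphatases that activate CDK1. CDC25B was at 9.35, 5.17 and 7.98 CPM in controls and 9.30, 8.86 and 12.5 CPM with BHB. Control 2 was the lowest library and BHB 3 the highest, and the other 4 lay between 7.98 and 9.35 CPM. Its log2 fold change of 0.45 (SE 0.30) was the highest of the 44 genes. CDC25C had a log2 fold change of 0.08 (SE 0.16).

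**Figure D2:**
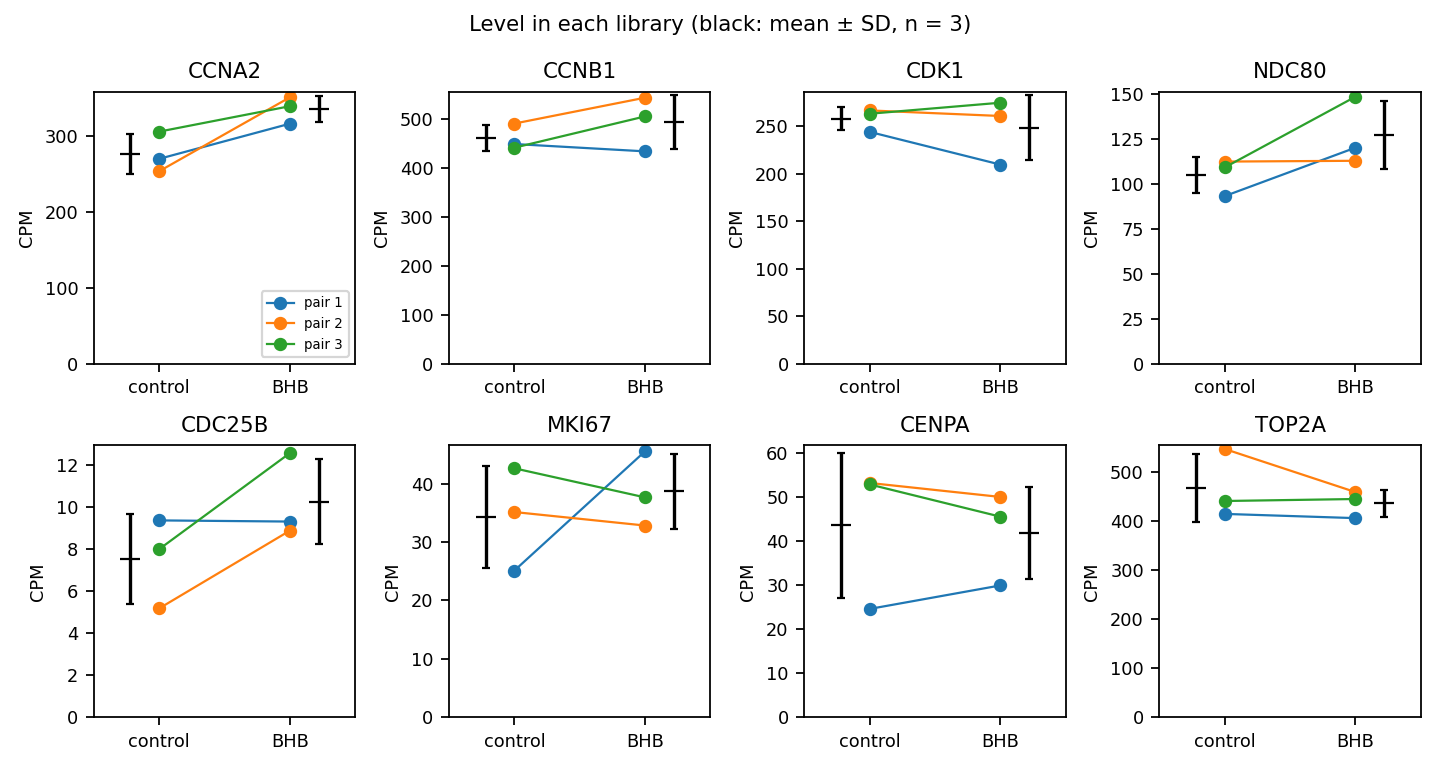
Level in CPM (y axis, from 0) of 8 genes in the control and BHB libraries (x axis), with a line for each of the 3 pairs and mean ± SD (n = 3) in black. CCNA2 and NDC80 have 3 BHB libraries above 3 controls, CENPA is low in both libraries of pair 1, and MKI67 differs mainly between the libraries of pair 1.

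Mitotic kinases showed no shared direction in the fit without pairs. Within pairs, all 3 were lower with BHB in pair 1, 2 were lower in pair 2, and 0 were lower in pair 3. PLK1 encodes polo-like kinase 1, which acts in centrosome maturation and chromosome segregation. It was at 65.1, 97.4 and 62.8 CPM in controls and 62.0, 71.5 and 75.0 CPM with BHB, with control 2 as the highest library. AURKA, which encodes the centrosomal Aurora A kinase, was at 150.0, 142 and 117 CPM in controls and 128, 146 and 137 CPM with BHB. AURKB, the kinase of the chromosomal passenger complex, was at 66.5, 77.6 and 49.4 CPM in controls and 58.6, 75.3 and 61.7 CPM with BHB. The control and BHB means of AURKA (136 ± 16.99 and 137 ± 9.13 CPM, SD, n = 3) and of AURKB (64.5 ± 14.2 and 65.2 ± 8.90 CPM) differed by less than these SDs.

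The spindle checkpoint holds anaphase back until every chromosome is attached. BUB1, a checkpoint kinase of the kinetochore, was at 147, 172 and 144 CPM in controls and 121, 138 and 147 CPM with BHB. Its log2 fold change of -0.19 (SE 0.14, 95% interval -0.50 to 0.12) was the lowest of the 44 genes and did not pass. MAD2L1, the checkpoint effector MAD2, averaged 1387 ± 139 CPM in controls and 1592 ± 296 CPM with BHB, with BHB 2 at 1923 CPM as the highest library. BUB1B, BUB3 and TTK had log2 fold changes of 0.08, -0.05 and -0.07, and TTK, the checkpoint kinase MPS1, varied least of all 44 genes, by 1.17-fold between its highest and lowest library.

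Anaphase follows when the anaphase-promoting complex marks cyclin B and securin for destruction. CDC20, its activator, was at 139, 185 and 127 CPM in controls and 142, 134 and 132 CPM with BHB; control 2 stood above the other 5 libraries. The log2 fold change was -0.14 (SE 0.16). UBE2C, the ubiquitin-conjugating enzyme of the complex, averaged 153 ± 14.2 CPM in controls and 171 ± 13.5 CPM with BHB. PTTG1, which encodes securin, was at 64.7, 61.5 and 62.7 CPM in controls and 62.2, 69.4 and 75.4 CPM with BHB (log2 fold change 0.13, SE 0.14). BHB 2 and BHB 3 were above all controls for PTTG1, and BHB 1 was among them.

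Kinetochore genes included the other member whose groups did not overlap. NDC80, a core subunit of the complex that binds spindle microtubules, was at 93.2, 112 and 109 CPM in controls and 120.2, 113 and 149 CPM with BHB. The lowest BHB library was just above the highest control. The log2 fold change was 0.28 (SE 0.15, 95% interval -0.07 to 0.62). Its partners in that complex were closer to 0, with NUF2 at -0.07 (SE 0.15) and SPC25 at 0.13 (SE 0.13). In all, 2 of the 44 genes (CCNA2 and NDC80) had the 3 BHB libraries above the 3 controls, against 4.06% of all genes, and 0 had them below, against 3.78% of all genes. CENPE, a kinetochore kinesin, and CENPF had log2 fold changes of 0.11 (SE 0.16) and 0.05 (SE 0.17).

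The chromosomal passenger partners of AURKB had small positive values. INCENP, the scaffold, averaged 29.0 ± 3.84 CPM in controls and 33.1 ± 3.22 CPM with BHB, and CDCA8 (borealin) at 99.0 ± 18.7 and 106 ± 8.08 CPM. Among kinesins, KIF11, the motor that pushes spindle poles apart, was at 181, 234 and 202 CPM in controls and 192, 247 and 209.5 CPM with BHB. These values order the libraries by pair, with pair 1 lowest and pair 2 highest. KIF20A, a motor of the central spindle, was at 237, 273 and 222 CPM in controls and 285, 295 and 271 CPM with BHB. Its log2 fold change was 0.22 (SE 0.13), and it was kept from separation by control 2, at 273 CPM against 271 CPM in BHB 3. KIF20B, KIF23, KIF2C and KIF4A lay between -0.09 and 0.10.

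Of the 5 spindle microtubule proteins, all had log2 fold changes above 0, from 0.06 to 0.23, with median 0.08. They were PRC1, which bundles antiparallel microtubules, TPX2, an activator of AURKA, NUSAP1, HMMR and CKAP2. NUSAP1 averaged 47.8 ± 7.06 CPM in controls and 56.3 ± 14.2 CPM with BHB, and CKAP2 at 195 ± 25.1 and 226 ± 35.4 CPM. The differences of both were smaller than the SD of the BHB libraries and larger than the SD of the controls. These SDs include differences between pairs, which took 78.6% and 72.7% of the variance of log2 CPM. Within pairs, both genes were higher with BHB in 3 of 3. The cytokinesis genes ANLN (anillin, a scaffold of the contractile ring) and ECT2 (a RhoA activator) had values of -0.08 (SE 0.20) and -0.02 (SE 0.15).

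Chromosome structure genes fell on both sides of 0. TOP2A, the topoisomerase that untangles sister DNA, was at 414, 547 and 441 CPM in controls and 406, 459 and 445 CPM with BHB. Control 2 was highest, and the log2 fold change was -0.10 (SE 0.14). MKI67 encodes Ki-67, a coat of mitotic chromosomes widely used as a proliferation marker. It was at 25.1, 35.1 and 42.6 CPM in controls and 45.5, 32.8 and 37.6 CPM with BHB, and its lowest and highest libraries were the 2 of pair 1. The log2 fold change was 0.17 (SE 0.22) with all libraries and -0.0062 without control 1. The condensin subunits SMC2, SMC4 and NCAPG were at -0.10, -0.02 and -0.08, and NCAPH, another condensin subunit, at 0.18 (SE 0.15).

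Differences between pairs took a larger share of the variance than treatment did, as they did in the whole table. Pair accounted for a median of 55.5% of the variance of log2 CPM in the 44 genes and treatment for 9.63%, against 53.5% and 10.8% over all tested genes. These shares have 2 and 1 degrees of freedom and were not tested. The deviations of paired libraries from their group means correlated over the 44 genes at 0.32, 0.37 and 0.47 in pairs 1 to 3, a description only, as genes do not vary independently of each other.

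Both libraries of pair 1 were below the other 4 libraries in 12 of the 44 genes (27.3%), against 12.8% of all tested genes. These were CDK1, CENPA, CENPF, KIF11, TOP2A, NUSAP1, HMMR, ECT2, CKAP2 and the condensin subunits SMC2, SMC4 and NCAPG. KIF2C, a microtubule depolymerase, was the 1 gene with pair 1 above the other 4, against 12.6% of all genes. Both libraries of pair 2 were above the others in 7 genes, AURKB, MAD2L1, INCENP, KIF11, PRC1, TOP2A and TPX2 (8.4% of all genes), and below them in 0 (9.28%). Pair 3 was below in 3 genes (11.1% of all genes) and above in 3 (10.1%). In the S phase list 10 of 50 genes had pair 1 below the others, and in the lists of other mitotic genes 28 of 140.

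**Figure D3:**
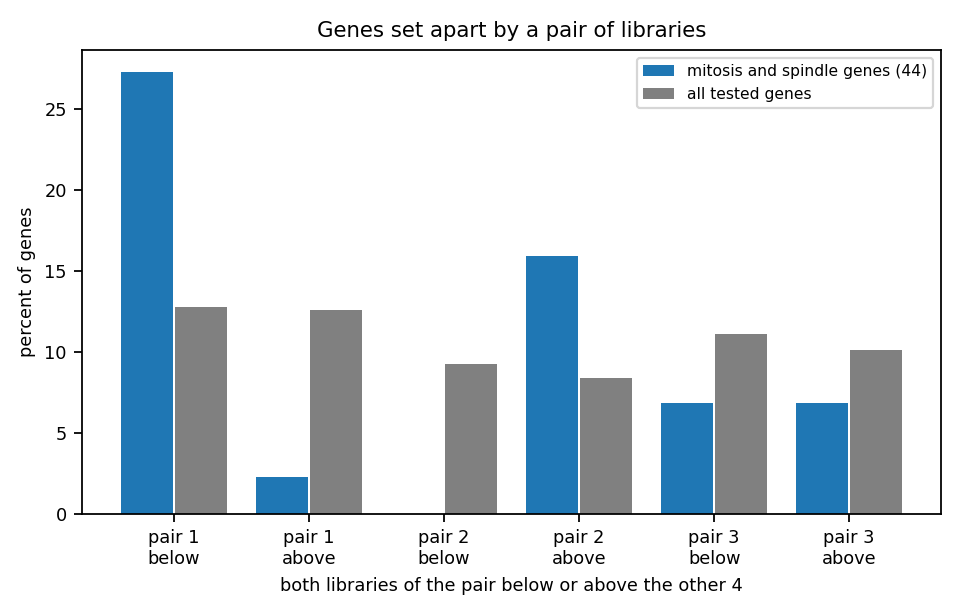
Percent of genes (y axis) in which both libraries of a pair lay below or above the other 4 libraries (x axis), for the 44 mitosis and spindle genes in blue and all tested genes in grey. The largest gap is for pair 1 below the others, 27.3% against 12.8%.

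In edgeR's test of the pair term, with treatment in the model, 1 of the 44 genes passed (4.12% of all genes), and it was CENPA. CENPA encodes the histone variant that marks the centromere. It was at 24.6 and 29.9 CPM in control 1 and BHB 1, at 53.2 and 49.995 CPM in control 2 and BHB 2, and at 52.8 and 45.5 CPM in control 3 and BHB 3. Both libraries of pair 1 were thus far below the other 4, of which the lowest was BHB 3. The adjusted p was 0.0373 in edgeR, and DESeq2's likelihood ratio test also called CENPA alone of the 44 (adjusted p = 0.0101, 5.48% of all genes called). The edgeR call was lost without control 1 (adjusted p = 0.224) or without BHB 1 (adjusted p = 0.0545).

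For CENPA, the log2 fold change of BHB over control without pairs was -0.06 (SE 0.31, interval -0.75 to 0.63). This interval is too wide to show that treatment moved the gene little. With the pair also in the model, the value was -0.02 (SE 0.15, interval -0.35 to 0.32). Neither interval fixed the direction of a change. At an unadjusted p under 0.05 the pair term had 10 of the 44 genes (20.6% of all genes), a share close to the background. After CENPA, the smallest adjusted p in edgeR were 0.117 for ANLN, 0.127 for CENPF, 0.141 for NUSAP1 and 0.155 for HMMR, none of which passed. ANLN was low in pair 3, at 257 and 257 CPM, against 305 to 426 CPM in the other 4 libraries. CENPF was at 143 and 147 CPM in pair 1 and between 184 and 199 CPM elsewhere. NCAPH was the member with the smallest share of variance between pairs, 1.97%, although the other condensin subunits SMC2, SMC4 and NCAPG had 92.2%, 96.8% and 87.2%.

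Levels of cell type markers varied between pairs, and some markers had the same direction with BHB in 3 of 3 pairs. The 4 primitive endoderm markers summed to 150.0 and 169 CPM in pair 1 and to 223 to 232 CPM in the other 4 libraries. Not every marker was low in pair 1. PDGFRA was at 40.7 and 57.7 CPM there and 82.1 to 106 CPM elsewhere, and HNF4A at 11.4 and 9.83 against 15.0 to 29.3 CPM. GATA6 was at 95.5 and 100.1 CPM in pair 1 and 92.4 to 132 CPM elsewhere. GATA4, at 0.875 to 3.17 CPM, and HNF4A were lower with BHB in 3 of 3 pairs, and GATA6 was higher in 3 of 3. None of these 3 passed edgeR's test of treatment. The 8 trophectoderm markers summed to 17132, 15344 and 10531 CPM in controls 1 to 3 and to 13459, 11676 and 8307 CPM with BHB, lowest in pair 3 and lower with BHB in 3 of 3 pairs. The keratins KRT8 and KRT18 made up most of that sum and were lower with BHB in 3 of 3 pairs (log2 fold changes -0.38 and -0.39 without pairs). With the replicate block their adjusted p was 0.209 and 0.263 in edgeR, and 0.0635 and 0.0967 in DESeq2.

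Of the 8 trophectoderm markers tested, 5 had log2 fold changes below 0 and 3 above. Within pairs, TFAP2C, CDX2 and TEAD4 were higher with BHB in 3 of 3 pairs, and only the 2 keratins were lower in 3 of 3. In edgeR's test of treatment 0 of the 8 passed, with or without the replicate block. TFAP2C, a trophectoderm transcription factor, was highest in pair 3, unlike the keratins, and had a log2 fold change of 0.37. CDX2 and TEAD4 were at 0.32 and 0.22, GATA3 at -0.02 and GATA2 at -0.17. TFAP2A was at -0.05 and, like the keratins, lowest in pair 3, with pair means of 6.77, 5.83 and 4.92 CPM. The 7 inner cell mass and epiblast markers summed to 662 to 705 CPM in controls and to 630.5 to 763 CPM with BHB. Members differed in direction, with 5 log2 fold changes above 0 and 2 below. KLF4, SALL4, DPPA3 and LIN28A were at 0.41, 0.16, 0.11 and 0.11, and POU5F1 at -0.01. The other 2 were NANOG and KLF17. NANOG, a pluripotency factor, was lower with BHB in 3 of 3 pairs (log2 fold change -0.84). Without pairs its adjusted p was 0.999 in edgeR and 0.368 in DESeq2. With the replicate block it was 0.183 in edgeR and 0.00887 in DESeq2. KLF17 was higher in 3 of 3 pairs (0.72, adjusted p = 0.371 in edgeR and 0.374 in DESeq2 with the block). The 3 oocyte markers summed to 20.9 to 32.5 CPM in controls and 15.2 to 32.4 CPM with BHB. The part of these markers in the values of the 44 genes was not tested.

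**Figure D4:**
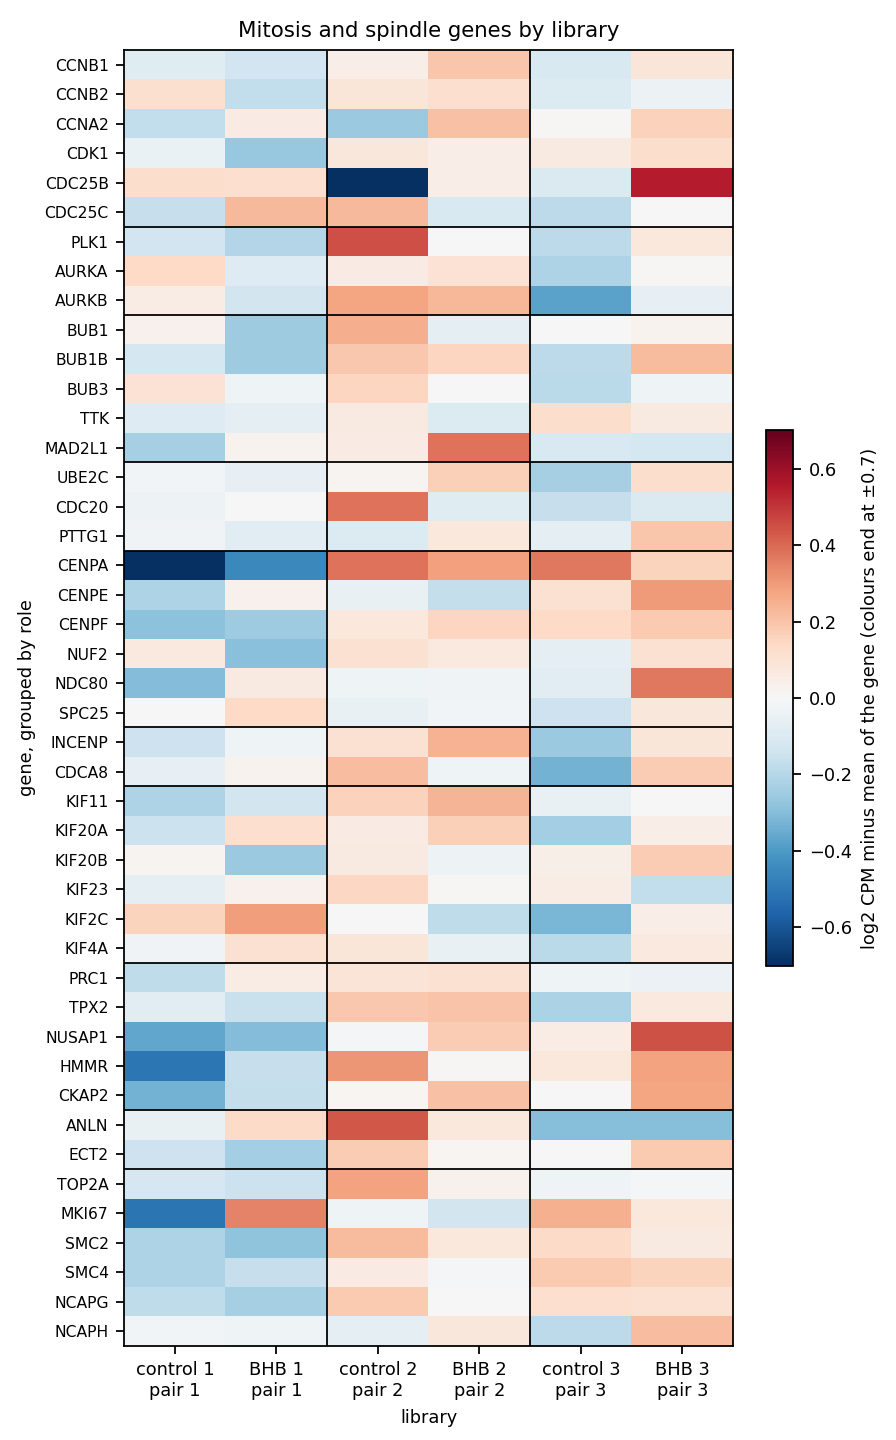
Log2 CPM of each gene (y axis, grouped by role) minus its mean over the 6 libraries (x axis, ordered by pair), with red above and blue below the mean. Both libraries of pair 1 are blue for CENPA, NUSAP1, HMMR, CKAP2 and the condensin subunits SMC2, SMC4 and NCAPG.

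Within pairs, BHB minus control had a median over the 44 genes of 0.04 in pair 1, -0.04 in pair 2 and 0.18 in pair 3, in log2 CPM. The difference was negative for 20, 25 and 10 of the 44 genes in turn. Over all tested genes these medians were 0.005, 0.004 and -0.008. In pair 3, control 3 held the lowest level of 14 of the 44 genes and BHB 3 the highest of 13. Counts as large occurred in pairs 1 and 2, but there both libraries of a pair lay on the same side. Control 1 and BHB 1 each held the lowest of 12 genes, and control 2 and BHB 2 the highest of 13 and 10. The shares of all genes were not counted.

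Direction was the same in 3 of 3 pairs for 11 genes. Those higher with BHB were 9 genes (14.5% of all genes), namely CCNA2, CENPF, INCENP, KIF11, KIF20A, NUSAP1, CKAP2, NDC80 and SPC25. Those lower were the condensin subunits SMC2 and NCAPG (15.7% of all genes). The differences of CCNA2 were 0.23, 0.47 and 0.15 log2 CPM in pairs 1 to 3. Those of CKAP2, which encodes a spindle microtubule protein, were 0.16, 0.20 and 0.27, and those of KIF20A 0.26, 0.11 and 0.28.

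**Figure D5:**
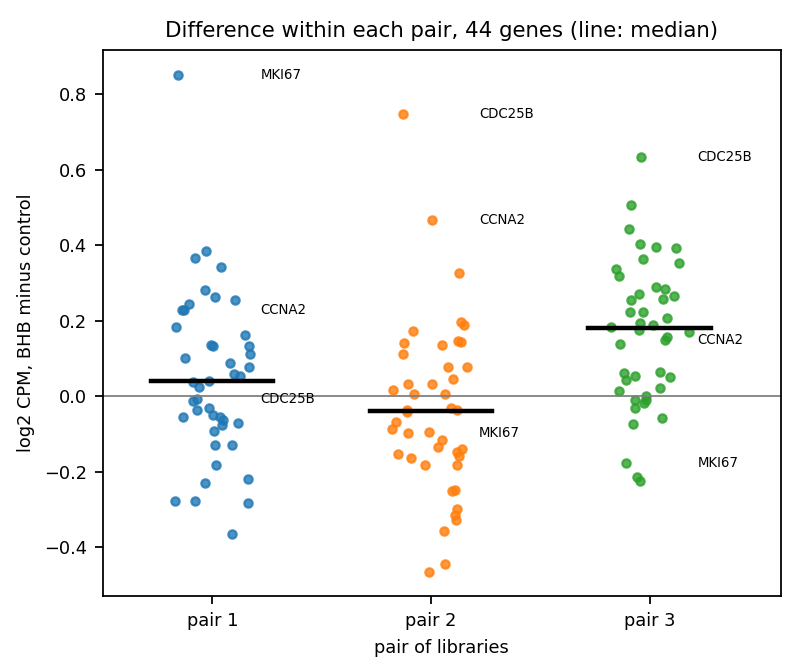
Difference in log2 CPM between the BHB and the control library (y axis) within each pair (x axis) for the 44 genes, 1 point per gene, with the median as a black line. The medians are 0.04, -0.04 and 0.18, and MKI67 in pair 1 is the largest difference at 0.85.

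With the pair as a replicate block, edgeR had 0 of the 44 genes past an adjusted p of 0.05 (0% of all genes), and 1 gene, CCNA2, at an unadjusted p under 0.05 (8.2% of all genes). CCNA2 had a log2 fold change of 0.28 in that fit (adjusted p = 0.538 in edgeR). DESeq2 with the same block called 0 of the 44 genes, against 0.339% of all genes. In the authors' deposited table, whose p-values come from a test of pair and treatment together as the refit shows, 1 of the 44 genes had an adjusted p under 0.05, against 5.04% of all genes. That gene was CENPA, with an adjusted p of 0.0193 in the authors' deposited table and a log2 fold change of BHB over control of -0.02 with its sign turned.

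Spread between libraries was small for these genes. The highest library exceeded the lowest by a median of 1.36-fold over the 44 genes, by more than 1.5-fold in 12 and by more than 2-fold in 2, CENPA (2.16-fold) and CDC25B (2.43-fold). Over all tested genes the median was 1.74-fold and 37.2% exceeded 2-fold, but many of those genes have low counts. For the 3454 genes with a mean of 50 to 500 CPM the median was 1.40-fold, and for the 37 mitosis and spindle genes in that range it was 1.35-fold. The SD of log2 CPM had medians of 0.18 and 0.17 in these sets.

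Other genes of mitosis were read from lists that share no gene with the 44. Of 140 such genes tested, 61 had log2 fold changes below 0 (median 0.03), 0 passed edgeR's adjusted p, and 1 lower and 3 higher genes had an unadjusted p under 0.05, a share close to the 2.73% of all genes. With the replicate block 2 lower and 8 higher genes did, against 8.2% of all genes. In the fit without pairs the lower gene was SKA2, which encodes a kinetochore protein that tracks microtubules. It was at 105, 119 and 99.1 CPM in controls and 92.4, 81.0 and 83.7 CPM with BHB (log2 fold change -0.33, SE 0.14). The 3 higher genes were CCNB3, KIF14 and E2F4.

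CCNB3, a cyclin with a known role in meiosis, was at 25.2, 25.7 and 26.3 CPM in controls and 34.6, 32.8 and 40.4 CPM with BHB. The controls lay close together and every BHB library was above them (log2 fold change 0.48, SE 0.16, adjusted p = 0.999 in edgeR). KIF14, a kinesin of cytokinesis, was at 4.41, 3.31 and 3.52 CPM in controls and 5.79, 7.34 and 5.69 CPM with BHB. E2F4, a transcription factor of the DREAM complex that represses cell cycle genes in resting cells, was at 32.6, 31.2 and 40.0 CPM in controls and 47.96, 42.8 and 45.7 CPM with BHB. Both had 3 BHB libraries above 3 controls and an adjusted p of 0.999 in edgeR. LIN37, a subunit of that complex, averaged 18.3 ± 1.34 CPM in controls and 23.0 ± 2.76 CPM with BHB.

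The remaining genes with the smallest p in each list were further from the threshold. In mitotic entry control, PKMYT1, a kinase that inhibits CDK1, had a log2 fold change of 0.38 (SE 0.20). In the list of the anaphase-promoting complex and cohesin, FBXO5, an inhibitor of that complex, was at 0.34 (SE 0.16) and its subunit CDC16 at 0.27 (SE 0.16). CEP55, which acts in the final cut of cytokinesis, was at 0.26 (SE 0.14). Among condensin and chromatin genes NCAPD2, a condensin subunit, was at -0.21 (SE 0.18) and CDCA2, which brings a phosphatase to chromosomes, at 0.12 (SE 0.14). CENPH, a kinetochore subunit, was at 0.71 (SE 0.51), from levels of 0.668 to 2.33 CPM.

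Genes of S phase and DNA replication gave a similar count. Of 50 tested, 23 had log2 fold changes below 0 (median 0.04), and 0 had an unadjusted p under 0.05 in edgeR (2.73% of all genes did). With the replicate block 2 did, both higher with BHB, against 8.2% of all genes. The smallest p was that of SLBP, which binds the stem-loop of histone messenger RNA, which averaged 77.6 ± 25.9 CPM in controls and 110.3 ± 19.3 CPM with BHB (log2 fold change 0.51, SE 0.24). CHAF1A, a histone chaperone of replication, followed at 0.27 (SE 0.16). No difference between this list and the 44 mitosis and spindle genes was tested.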

How the data were processed

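RNA was measured in 6 libraries, grouped by the treatment in their labels, with replicates numbered 1 to 3 in order of deposit. The deposited counts per gene are whole numbers that the authors did not normalize. STAR, featureCounts and DESeq2 are named in the submitters' processing notes. No version is stated, and build, annotation, strandedness of counting and handling of multi-mapped reads were likewise not given in the sources used here, so genes with near-identical copies could share reads. The authors' deposited table of results gives each gene's mean (a signal that is never negative), its log2 fold change of control over BHB with an error, p-values before and after adjustment, and the score of the test.

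Genes were filtered with filterByExpr (94 removed), scaled with TMM factors and tested with edgeR 4.0.16's quasi-likelihood F test in R 4.3.3, with Benjamini-Hochberg adjustment over 12732 genes at 0.05 and no covariate. DESeq2 1.42.0 and limma 3.58.1 (voom) were alternatives, as were other scalings, other filters, the pair as a replicate block and leaving out libraries. CPM use TMM-scaled totals, log2 CPM a prior count of 2, and intervals a level of 95%. Pairs came from refits of DESeq2's likelihood ratio test (pair and treatment against neither) under 6 pairings, counting a p-value as given back within 1e-06. Over all genes, deviations of paired libraries from their group means correlated at 0.46, 0.32 and 0.33, so the numbers were taken to pair the libraries. All 44 symbols matched the RefSeq gene table of ARS-UCD2.0, from which only names were taken; since the files' build is unknown here, coordinates are left out.

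The 44 genes and all other lists were chosen with earlier results of these data known. Of the 44, values in every library are given for 13 fixed genes, the 3 highest and 3 lowest fold changes, and genes with an unadjusted p under 0.05 or called between pairs. For each list of other mitotic or S phase genes, the 2 genes with the smallest p are named. Other genes named were chosen after their values were seen.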

Additional observations from a re-analysis of the deposited data

How the results depend on the processing

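In 18 other settings 0 of the 44 genes passed the adjusted threshold between BHB and control, and their median log2 fold change ranged from 0.006 to 0.14 (0.01 to 0.14 with 1 library left out). The replicate block changed no call among the 44. Over all genes, against 0 in edgeR, the count called was 6 with DESeq2's Wald test, 35 with DESeq2 and the replicate block, and 0 to 1 with 1 library left out of the edgeR test. The replicate block without pair 1, 2 or 3 gave 4, 16 and 4 genes; these fits, limma-voom with the block and the omissions from the test between pairs were chosen after seeing the data. Between pairs, 0 to 2 of the 44 were called with 1 library left out. Of 288 values of 16 named genes in other settings, 261 kept their sign and 0 passed the threshold. Signs turned under library size alone for CCNB2 (0.0054) and CDK1 (0.013). They turned under the replicate block without pair 1 for CCNB2 (0.042), CDK1 (0.015) and MKI67 (-0.14), without pair 2 for PLK1 (0.095), AURKA (-0.0030), CDC20 (0.053) and CENPA (0.025), and without pair 3 for AURKA (-0.082), AURKB (-0.10) and CENPA (0.097). With 1 library left out, the log2 fold change ranged from -0.14 to 0.0043 for CCNB2, -0.13 to 0.054 for CDK1, -0.23 to 0.12 for PLK1, -0.091 to 0.084 for AURKA, -0.14 to 0.17 for AURKB, -0.25 to 0.039 for CDC20, -0.17 to 0.031 for TOP2A, -0.0062 to 0.36 for MKI67, -0.033 to 0.18 for KIF11 and -0.34 to 0.13 for CENPA. Such fits keep the partner of the library left out, so they mix pair with treatment, and the cause of each change was not tested. With 3 libraries a group, the median SE of the 44 genes was 0.15 on the log2 scale, which limits what the test can call.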
